A study of Mus musculus with 65 samples.

Results

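Whole-genome messenger RNA profiles of p53-null mammary tumours were compared between wild-type hosts that had been irradiated and wild-type hosts that had been sham-treated before transplantation. The members are the 32 tumours whose titles name a wild-type host, of 65 arrays in the series, and each was placed in its group by its title. They comprise 23 tumours of irradiated hosts and 9 of sham-treated hosts. The other arrays are 16 tumours of Tgfb1 heterozygous hosts (10 irradiated, 6 sham-treated), used here only to set a second host beside the first and to share the estimate of spread, and 17 mammary glands, which were not used.

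Every tumour grew from a fragment of BALB/c mammary tissue that lacked p53 and was itself never irradiated. The fragment was placed in the inguinal fat pad of a female BALB/c host whose own epithelium had been removed at 3 weeks of age, and the host was irradiated or not 3 days before the transplant. No label states the dose that these hosts received. Both groups therefore share the p53-null epithelium and a normal Tgfb1 gene, and differ in the host's exposure. Host numbers in the labels differ for all 32 tumours. In 1 tumour, irradiated repeat 1, the title names an irradiated host and the source name and host protocol a sham-treated one.

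p53 is a transcription factor that halts the cell cycle or triggers death after DNA damage, and mammary cells without it gain and lose chromosomes and form tumours of varied cell identity. In this transplant design the radiation reached the host, with its stroma, vessels and immune cells, and not the cells that formed the tumour. TGF-beta1, which is stored in the matrix in latent form and can be activated by radiation, restrains epithelial growth and shapes stroma and immunity. The study's title names low-dose radiation acting through TGF-beta as its question.

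The arrays were comparable in scale, with medians of 5.84 to 5.96 in deposited log2 units, and no 2 were identical. Correlations between arrays were 0.789 to 0.981 among tumours of irradiated hosts and 0.781 to 0.956 among tumours of sham hosts, and 0.781 to 0.966 between the groups. In both groups, then, some tumours differed from each other as much as tumours did across the groups. A median correlation with the others under 0.86 set apart irradiated repeats 2, 3, 7 and 23 and sham repeats 5 and 6. The epithelial adhesion gene Epcam had a lowest, median and highest level of 7.37, 13.52 and 13.79 in tumours of irradiated hosts, and of 8.68, 13.47 and 13.79 in tumours of sham hosts. Low levels were found in 3 tumours of irradiated hosts, repeats 23, 2 and 7 at 7.37, 8.29 and 9.42, and in 1 sham tumour, repeat 6 at 8.68. The next lowest sham tumour was repeat 5 at 10.94.

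No gene passed the test between tumours of irradiated and of sham hosts. Of 12786 genes tested with limma, 0 were higher (0%) and 0 were lower (0%) at a Benjamini-Hochberg adjusted p of 0.05, and the smallest adjusted p was 0.319. At an unadjusted p under 0.05, 426 genes were higher (3.33%) and 461 lower (3.61%), 887 in all (6.94%), where chance gives 639. The median difference (irradiated minus sham) over all genes was 0.001 on the log2 scale, and the median standard error (SE) was 0.16. In all, 45 genes had a mean difference above 1 in size, and the furthest was 1.76. The genes below are therefore those with the smallest p-values in each direction, described by their values, and none of them passed the test.

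The 12 genes leading the higher direction were Mterf3, Dbh, Sspo, Psma2, Edn3, BC052688, Tmem167, Hspbap1, Lsm1, Pdcl3, Lim2 and Adamts16, with differences of 0.27 to 0.62 and adjusted p-values of 0.319 to 0.340 (limma). Mterf3, a mitochondrial protein of the transcription termination factor family, had a lowest, median and highest level of 9.89, 10.32 and 11.01 in tumours of irradiated hosts, and of 9.66, 9.84 and 10.30 in tumours of sham hosts. All 23 tumours of irradiated hosts lay above the sham median and 14 lay above the highest sham tumour, while 5 of 9 sham tumours lay below the lowest of the irradiated group. The fitted difference was 0.39 (SE 0.09). Psma2, a subunit of the 20S proteasome core, had 11.80, 12.57 and 12.83 in tumours of irradiated hosts and 11.65, 12.15 and 12.50 in tumours of sham hosts, a difference of 0.35 (SE 0.09). Its ranges overlapped, with 16 tumours of irradiated hosts above every sham tumour. Lsm1, part of the ring that starts messenger RNA decay by decapping, showed the widest gap of the 12, with 8.95, 9.60 and 11.07 in tumours of irradiated hosts and 8.30, 9.10 and 9.80 in tumours of sham hosts. Its difference was 0.62 (SE 0.17), and only 5 tumours of irradiated hosts exceeded the highest sham tumour. Tmem167, a membrane protein of the secretory pathway, had 10.64, 10.96 and 11.33 in tumours of irradiated hosts, against 10.07, 10.65 and 11.06 in tumours of sham hosts. All 7 of its probe sets gave the same direction.

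Several others of the 12 are genes of specialised tissues. Dbh, which turns dopamine into noradrenaline, had medians of 7.03 in tumours of irradiated hosts and 6.78 in tumours of sham hosts. The peptide hormone gene Edn3 had medians of 6.38 in tumours of irradiated hosts and 5.90 in tumours of sham hosts. For Lim2, a membrane protein of the eye lens, the medians were 5.85 in tumours of irradiated hosts and 5.61 in tumours of sham hosts. The levels of Edn3 and Lim2 lie near the floor of 5.14 below which genes were left out, and their differences of 0.42 and 0.27 are small shifts of dim signals. The same holds for Sspo, with medians of 5.81 in tumours of irradiated hosts and 5.40 in tumours of sham hosts. Adamts16 was as dim, with medians of 5.62 in tumours of irradiated hosts and 5.38 in tumours of sham hosts. Among the 12, 3 of 4 probe sets of Edn3 and of Hspbap1 gave the direction of their gene, and 1 of 2 did for BC052688 and for Adamts16. These counts are of signs only. In each of the 12 with more than 1 probe set, every other set gave a difference smaller in size than the set used. The second probe set of Mterf3 gave 0.0877, against 0.39 for the set used. For Lsm1 the second probe set gave 0.185, against 0.62.

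The 12 genes leading the lower direction were Hmox1, Zgpat, Pygb, Pcsk4, Ap2a2, Synm, Trpc4ap, Mroh1, Alas2, Insyn2a, Myo7a and Gigyf1, with sizes of 0.28 to 1.67 and adjusted p-values of 0.319 to 0.340 (limma). Hmox1, the inducible haem oxygenase that breaks down haem, had a lowest, median and highest level of 6.12, 7.77 and 9.01 in tumours of irradiated hosts, and of 7.09, 8.74 and 12.83 in tumours of sham hosts. Of the 23 tumours of irradiated hosts 21 lay below the sham median, and 3 of 9 sham tumours lay above every tumour of an irradiated host. The fitted difference was -1.55 (SE 0.37), which is 2.93-fold lower. Alas2, the erythroid enzyme that opens haem synthesis, had 4.97, 5.55 and 6.71 in tumours of irradiated hosts and 5.31, 6.81 and 12.65 in tumours of sham hosts. All 23 tumours of irradiated hosts lay below the sham median, and 6 of 9 sham tumours lay above all of them. Its difference was -1.67 (SE 0.44), and its irradiated median lay near the filter floor of 5.14.

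Both haem genes peaked in sham repeat 5, the tumour with the most endothelial transcripts. Without that tumour the differences were -1.09 for Hmox1 and -0.99 for Alas2, with adjusted p-values of 0.432 and 0.499 (limma). The mean of 11 tested endothelial markers was 11.78 in that tumour, against 8.25 in the next sham tumour and 6.45 to 8.50 in tumours of irradiated hosts. Their part in the haem genes' values was not tested, and in bulk tissue fewer cells of a type and less RNA per cell cannot be told apart.

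Synm and Myo7a encode cytoskeletal proteins, the intermediate filament protein synemin and an unconventional myosin. Synm had 4.32, 5.40 and 7.18 in tumours of irradiated hosts and 4.95, 6.88 and 9.03 in tumours of sham hosts, a difference of -1.39 (SE 0.35). The irradiated median of Synm lay near the filter floor of 5.14. Myo7a had 5.68, 6.39 and 9.15 in tumours of irradiated hosts and 6.17, 8.14 and 9.78 in tumours of sham hosts, a difference of -1.39 (SE 0.37). For each gene 3 sham tumours lay above every tumour of an irradiated host, and 8 of 9 lay above the irradiated median. The other genes moved less and more evenly. Pygb, a glycogen phosphorylase, had 9.06, 9.61 and 10.03 in tumours of irradiated hosts and 9.64, 10.13 and 10.29 in tumours of sham hosts, with 12 tumours of irradiated hosts below every sham tumour. Ap2a2, a subunit of the clathrin adaptor AP-2, had 8.60, 8.95 and 9.56 in tumours of irradiated hosts and 9.04, 9.24 and 9.93 in tumours of sham hosts, with 14 tumours of irradiated hosts below every sham tumour and 5 of 5 probe sets in the same direction. The probe sets of Insyn2a and Trpc4ap disagreed, since 1 of 3 and 1 of 2 gave the direction of their gene.

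**Figure D1:**
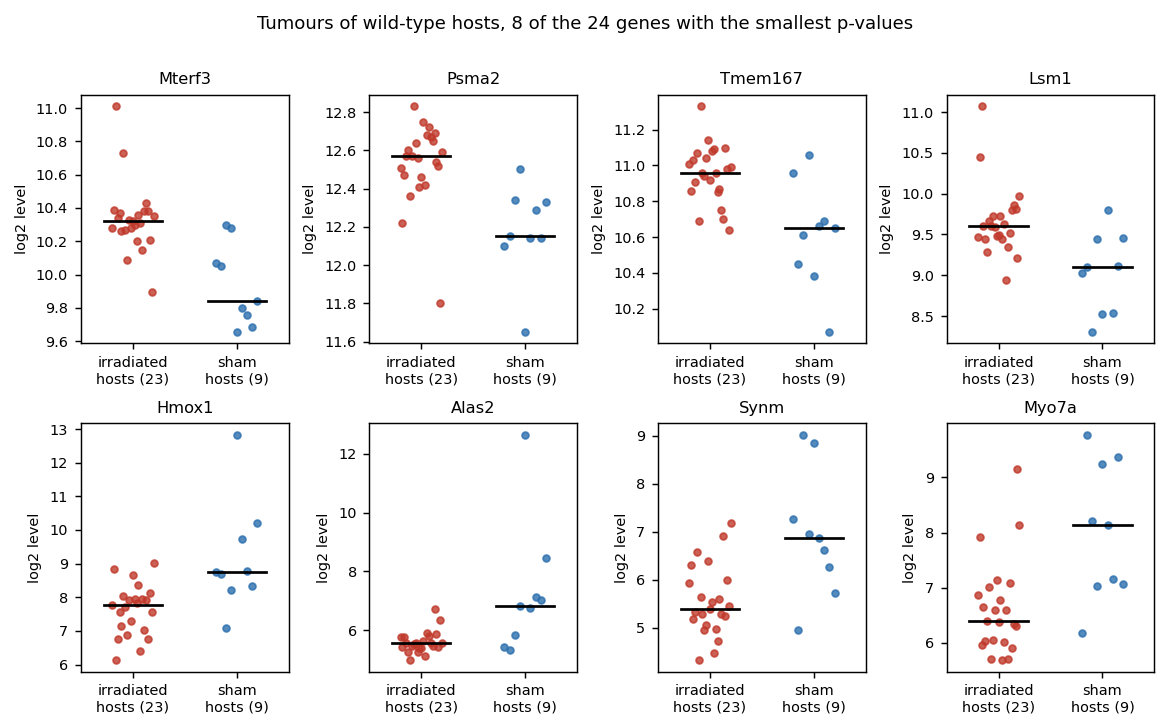
Log2 level of 8 of the 24 genes with the smallest p-values in each tumour, with 23 tumours of irradiated wild-type hosts on the left and 9 of sham hosts on the right of each panel. Black lines are group medians. The groups overlap in every panel, and the Hmox1 and Alas2 panels each have 1 sham tumour, at 12.83 and 12.65, far above the rest.

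The genes that bear on the study's question were within the spread of the tumours. Tgfb1 had a lowest, median and highest level of 7.88, 8.73 and 10.03 in tumours of irradiated hosts, and of 8.08, 9.03 and 11.33 in tumours of sham hosts. Its difference was -0.42 (SE 0.23, adjusted p = 0.736, limma), and -0.15 without sham repeat 5, which held the highest value. The hormone receptor genes had differences of 0.30 (SE 0.45) for Esr1 and -0.57 (SE 0.62) for Pgr. Mki67, a marker of cycling cells, had medians of 11.27 in tumours of irradiated hosts and 11.49 in tumours of sham hosts, a fitted difference of -0.18. The cell cycle inhibitor Cdkn1a, a p53 target, had medians of 8.89 in tumours of irradiated hosts and 9.06 in tumours of sham hosts. Its fitted difference had the other sign, at 0.11. Keratin levels varied widely within both groups. Krt14, a basal keratin, spanned 4.27 to 12.79 in tumours of irradiated hosts and 6.11 to 10.71 in tumours of sham hosts, and the luminal keratin Krt18 spanned 9.42 to 14.19 in tumours of irradiated hosts and 10.83 to 13.95 in tumours of sham hosts.

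Across 28 lists of pathway genes and cell type markers, 375 genes were listed, 353 were on the array, 317 passed the filter on low levels and 0 were called. Of the 317, 10 had an unadjusted p under 0.05 (3.16%), against 6.94% of all genes tested. Lists are described below by their counts and medians, beside a median of 0.001 and 50.4% positive differences over all genes.

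TGF-beta components had 17 tested members, of which 8 were positive, with a median of -0.04. Ltbp2, a microfibril protein of the latent TGF-beta binding protein family, had 5.90, 9.55 and 11.09 in tumours of irradiated hosts and 8.91, 10.39 and 11.53 in tumours of sham hosts, a difference of -0.88 (SE 0.37, adjusted p = 0.647, limma). Smad2, which carries the signal from the receptor to the nucleus, differed by 0.23 (SE 0.11). Of 11 TGF-beta induced genes 5 were positive and the median was -0.08. The transcription factor gene Bhlhe40 led them, with 10.00, 10.76 and 11.72 in tumours of irradiated hosts and 10.30, 11.10 and 12.05 in tumours of sham hosts, a difference of -0.53 (SE 0.18, adjusted p = 0.520, limma). Only 3 tumours of irradiated hosts lay below every sham tumour.

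No stromal gene was called, and the medians of the stromal lists depended on sham repeat 5. All 11 endothelial members were negative, with a median of -0.39. Without sham repeat 5 the median was 0.09 and 6 of the 11 were positive. The lymphatic marker Lyve1 had 4.45, 5.30 and 6.83 in tumours of irradiated hosts and 4.67, 7.20 and 13.04 in tumours of sham hosts. Its difference of -1.76 (SE 0.59, adjusted p = 0.520, limma) was the furthest from 0 of all genes tested, and it was -1.05 without sham repeat 5. The irradiated median of Lyve1 lay near the filter floor of 5.14. The adipocyte list had 0 of 7 positive and a median of -0.29, or 2 of 7 and -0.12 without sham repeat 5, with list means of 6.29 to 7.74 in tumours of irradiated hosts and 6.01 to 9.19 in tumours of sham hosts, where repeats 5 and 9 stood highest. Fibroblast and collagen genes had 1 of 16 positive and a median of -0.25, or 4 of 16 and -0.07 without sham repeat 5. Of the hypoxia and glycolysis genes 2 of 13 were positive, with a median of -0.15, also -0.15 without that tumour, where 4 of 13 were positive. Aldoa, a glycolytic enzyme, had 12.33, 12.95 and 13.25 in tumours of irradiated hosts and 12.61, 13.31 and 13.66 in tumours of sham hosts, a difference of -0.35 (SE 0.11, adjusted p = 0.507, limma). Gapdh differed by -0.16 (SE 0.07), with 13 of 23 tumours of irradiated hosts below every sham tumour.

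No immune gene was called either. All 7 tested MHC class II genes, which present antigen to helper T cells, were positive with a median of 0.32, and 13 of 14 interferon-induced genes were positive with a median of 0.22. Without sham repeat 5 the medians were 0.38 with 7 of 7 MHC class II genes positive, and 0.09 with 10 of 14 interferon-induced genes positive. H2-Aa had 9.38, 12.17 and 13.81 in tumours of irradiated hosts and 11.04, 11.69 and 12.63 in tumours of sham hosts, a difference of 0.37 (SE 0.34, adjusted p = 0.891, limma), so that the irradiated group held both the lowest and the highest tumours. T and NK cell genes had 10 of 11 positive and a median of 0.18, and Cd8a, a co-receptor of cytotoxic T cells, differed by 0.28 (SE 0.13). Macrophage genes had 10 of 14 positive, yet the scavenger receptor genes Cd163 and Mrc1 pointed lower. Cd163 had 3.97, 5.96 and 8.31 in tumours of irradiated hosts and 5.56, 7.26 and 8.55 in tumours of sham hosts, a difference of -1.03 (SE 0.42, adjusted p = 0.647, limma). Mrc1 differed by -0.998 (SE 0.461).

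Epithelial lists varied widely within each group. Milk protein genes had 8 of 10 positive and a median of 0.35, which was 0.03 without sham repeat 6, with list means of 6.87 to 12.36 in tumours of irradiated hosts and 6.27 to 11.40 in tumours of sham hosts. The mucin-like milk protein gene Glycam1 alone spanned 3.56 to 13.11 in tumours of irradiated hosts and 3.98 to 9.93 in tumours of sham hosts, a difference of 1.42 (SE 1.09). Trp63, the basal cell regulator related to p53, differed by 0.99 (SE 0.61). Luminal markers had 9 of 14 positive and a median of 0.17, which was -0.30 without sham repeat 6, with list means of 6.34 to 12.33 in tumours of irradiated hosts and 7.42 to 11.87 in tumours of sham hosts, and the low ends were irradiated repeats 2, 7 and 23 and sham repeat 6. Cell cycle genes had 6 of 21 positive and a median of -0.07, and p53 target genes 10 of 13 and 0.09. DNA repair genes (median 0.03), autophagy genes (-0.01) and immediate early genes (-0.05) stayed near 0.

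**Figure D2:**
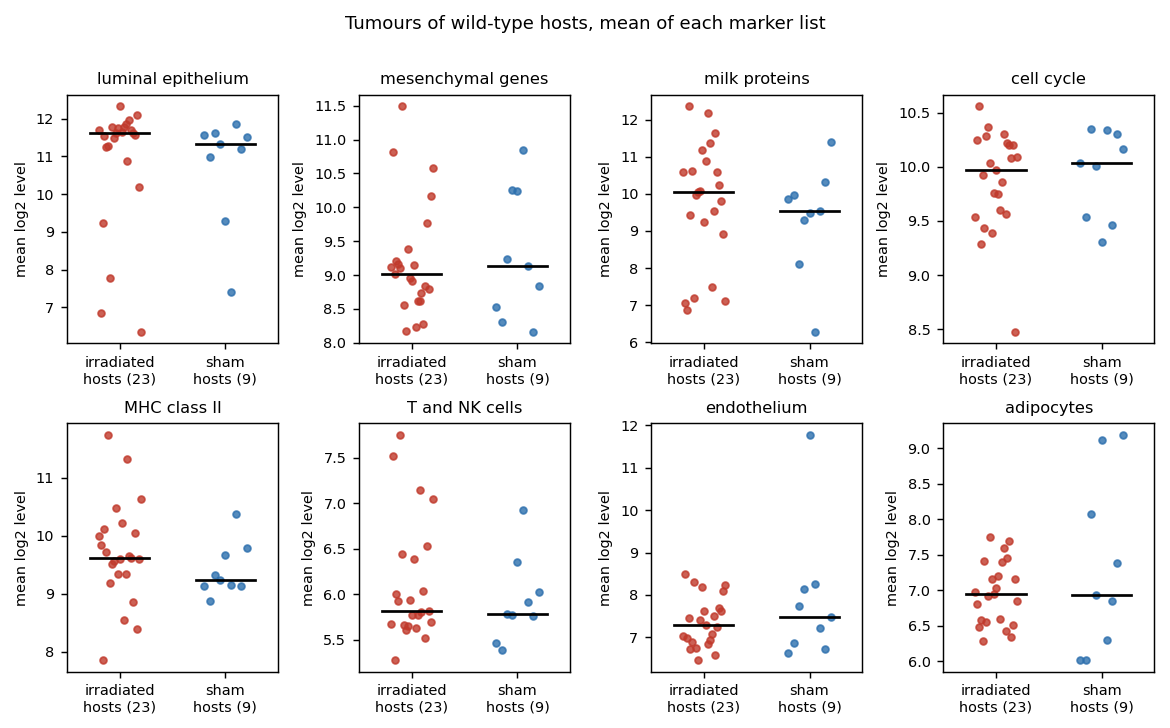
Mean log2 level of 8 marker lists in each tumour, with 23 tumours of irradiated wild-type hosts on the left and 9 of sham hosts on the right of each panel. Black lines are group medians. The spread within each group exceeds the gap between medians, and 1 sham tumour, at 11.78, stands alone in the endothelium panel.

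The small differences were unevenly placed along the genome. Genes were assigned to chromosomes from a RefSeq table of assembly GRCm38.p6, and chromosomes were singled out after their values were seen, so no test is attached. Of the 457 tested genes of chromosome 13, 79.0% had a positive difference, with a median of 0.13, and 67 had an unadjusted p under 0.05 in the higher direction (14.7%), against 3 in the lower. Chromosome 13 held 28 of the 100 higher genes with the smallest p-values and 3.57% of all genes tested. Mterf3, Psma2, BC052688, Tmem167 and Adamts16 lie on it. Chromosomes 2 and 7 had the reverse pattern. Chromosome 2 had 33.4% positive differences among 1000 genes, a median of -0.08 and 86 genes lower at an unadjusted p under 0.05, against 15 higher. Chromosome 7 had 32.5% positive differences among 1000 genes, a median of -0.07 and 78 genes lower, against 14 higher. Of the 100 lower genes with the smallest p-values, 28 lay on chromosome 2 and 24 on chromosome 7, each of which holds 7.82% of all genes tested. Zgpat, Pygb and Trpc4ap lie on chromosome 2, and Ap2a2, Synm, Insyn2a and Myo7a on chromosome 7.

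Tumour by tumour, these displacements were small and the groups overlapped. With each gene set against its median over the 32 tumours, the median of the chromosome 13 genes had a lowest, middle and highest value of -0.09, 0.01 and 0.19 in tumours of irradiated hosts, and of -0.45, -0.10 and 0.06 in tumours of sham hosts. It was above 0 in 14 of 23 tumours of irradiated hosts and in 2 of 9 sham tumours, and sham repeat 5 was the lowest. Without that tumour chromosome 13 had a median of 0.09, with 37 genes higher and 5 lower, and chromosome 2 a median of -0.08, with 138 genes lower and 13 higher. Chromosome 7 then had a median of -0.04, with 57 genes lower and 18 higher. Along chromosome 2 the medians of 5 successive groups of 200 genes were -0.01, -0.06, -0.09, -0.09 and -0.14. The last group thus lay furthest below 0, while the 5 groups of chromosome 13 lay between 0.09 and 0.16.

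Whole chromosomes were also displaced in single tumours of both groups. A shift of at least 0.25 in a chromosome's median was seen in 24 of 460 pairs of a tumour and a chromosome in tumours of irradiated hosts (5.22%), and in 11 of 180 pairs in tumours of sham hosts (6.11%). At least 1 such shift was present in 15 of 23 tumours of irradiated hosts and 7 of 9 tumours of sham hosts, with at most 3 in a tumour of either group. Chromosome 8 lay at -0.48 in irradiated repeat 16 and at -0.55 in sham repeat 3, and chromosome 1 lay at 0.37 in irradiated repeat 14.

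**Figure D3:**
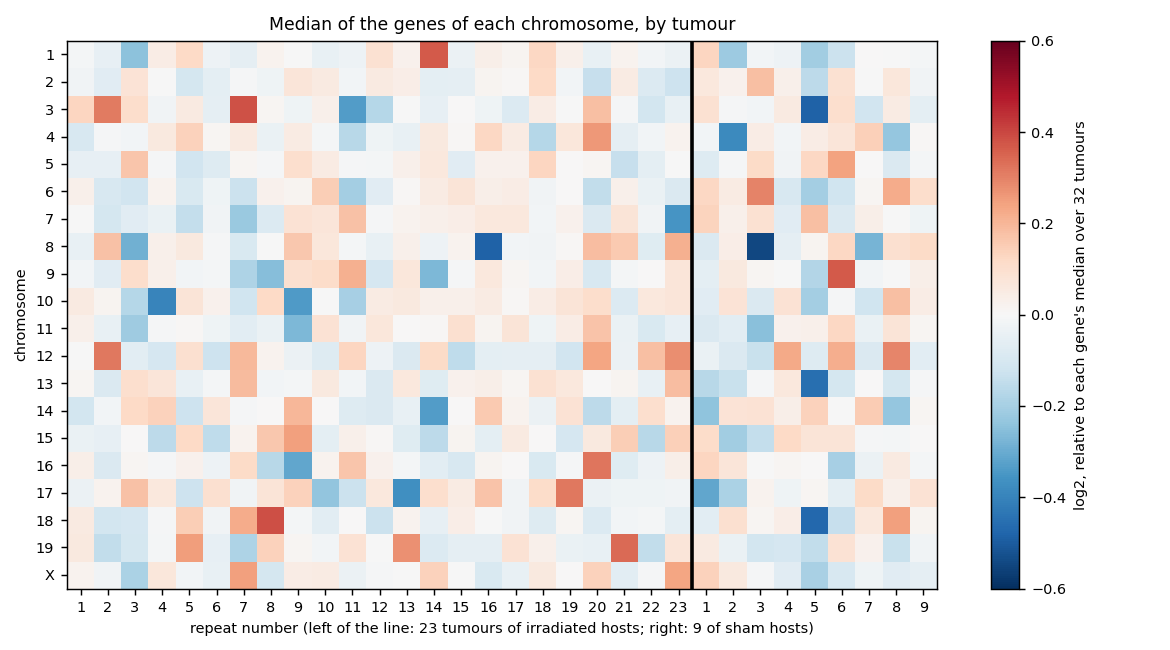
Median log2 level of the tested genes of each chromosome in each tumour, relative to each gene's median over the 32 tumours, with 23 tumours of irradiated wild-type hosts left of the line and 9 of sham hosts right of it. Rows are chromosomes, red is higher and blue is lower. Single strong cells, such as chromosome 8 at -0.48 in irradiated repeat 16 and at -0.55 in sham repeat 3, occur on both sides.

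Within chromosomes, single tumours carried runs of neighbouring genes that were high or low together. Windows of 10 consecutive tested genes were scanned in every tumour, with each gene set against its median over the 32 tumours. A run was kept where the window's median lay at least 1 from 0 and at least 5 of the 10 genes lay beyond all other 31 tumours. The second condition drops many runs that several tumours share. On the first condition alone there were 206 runs in 22 of 23 tumours of irradiated hosts, and 87 runs in 9 of 9 tumours of sham hosts. This scan was designed after the data were seen. It kept 72 runs in 14 of 23 tumours of irradiated hosts and 29 runs in 5 of 9 tumours of sham hosts, where adjacent runs of 1 tumour can belong together. Single tumours supplied much of each count, with 25 of the 72 in irradiated repeat 3 and 19 of the 29 in sham repeat 5, both of which stood apart in correlation. Without those tumours 47 runs remained in 13 tumours of irradiated hosts and 10 runs in 4 tumours of sham hosts. The furthest was on chromosome 2 in irradiated repeat 6, with a window median of 4.10, or 17.1-fold. It held Traf2, an adaptor of tumour necrosis factor receptors, at 13.08 against 9.42 in the next tumour, and Abca2, a lipid transporter, at 10.75 against 7.61. In that window 9 of the 10 genes were beyond every other tumour. Lower runs were kept too, such as 1 on chromosome 1 in irradiated repeat 3, with a window median of -2.04 over genes that include Ifi204 and Ifi203. Irradiated repeat 3 also had the lowest mean of the interferon-induced list, at 8.01 against 8.32 in the next tumour. A link between that low list mean and the run was not tested.

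Other kept runs lay on chromosomes 3, 6 and 8. On chromosome 3 of irradiated repeat 4 the run included Nras, a RAS family GTPase, at 13.72, against a highest other level of 11.22 and a median of 10.62, and the window median was 2.75. On chromosome 6 irradiated repeat 20 had a run with a window median of 3.66, where Gsdme, a pore-forming protein of cell death, stood at 12.30 against 9.51 in the next tumour. On chromosome 8 kept runs of 1 tumour of each group overlapped. Irradiated repeat 2 was higher there too, in a window from Coprs to Agpat5 with a median of 1.85. That run was not kept, since 3 of its 10 genes lay beyond all other tumours. Cdc16, a subunit of the anaphase-promoting complex, had 13.00 in irradiated repeat 16 and 12.81 in sham repeat 7, against a median of 10.27, and Champ1, which acts in chromosome alignment, had 12.19 in irradiated repeat 16 and 11.82 in sham repeat 7, against a median of 8.82.

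The run of sham repeat 9 on chromosome 1 shows the pattern gene by gene. Of 41 tested genes centred on Ppox, an enzyme of haem synthesis, 15 lay above all other 31 tumours and more than 1 above the median, by 1.79 to 3.53 with a median of 2.55. B4galt3, a galactosyltransferase, stood at 12.37 against a median of 9.26, Ppox at 10.51 against 7.70, Usf1, a transcription factor, at 11.97 against 9.50, and Pex19, which imports peroxisomal membrane proteins, at 11.49 against 8.87. Genes expressed mainly by leukocytes lie between them and were close to their medians, at -0.07 for Cd48 and -0.33 for Cd84. Fcer1g, just before the run, was at -0.02.

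Around Met on chromosome 6, most tumours of both groups were high and a minority was low. Met, the receptor of hepatocyte growth factor, had a lowest, median and highest level of 7.19, 13.87 and 14.06 in tumours of irradiated hosts, and of 11.08, 13.70 and 13.99 in tumours of sham hosts. The levels left a gap: 17 tumours of irradiated hosts had at least 13.16 and the other 6 at most 11.88, and 6 sham tumours had at least 13.65 and the other 3 at most 11.62. The neighbouring gene Capza2, an actin capping protein, was more than 1 below its median in 9 tumours, the same 9 in which Met was. St7 was low in all 9 as well, but also in tumours where Met was high. It lay more than 1 below its median in 10 tumours of irradiated hosts and 3 of sham hosts. In irradiated repeats 13, 21, 10 and 4 St7 stood at 6.70, 7.23, 7.38 and 8.45, with Met at 14.06, 13.92, 13.93 and 13.88. The difference between host treatments was -0.04 (SE 0.62, adjusted p = 0.996, limma) for Met and -0.05 (SE 0.37) for Capza2.

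**Figure D4:**
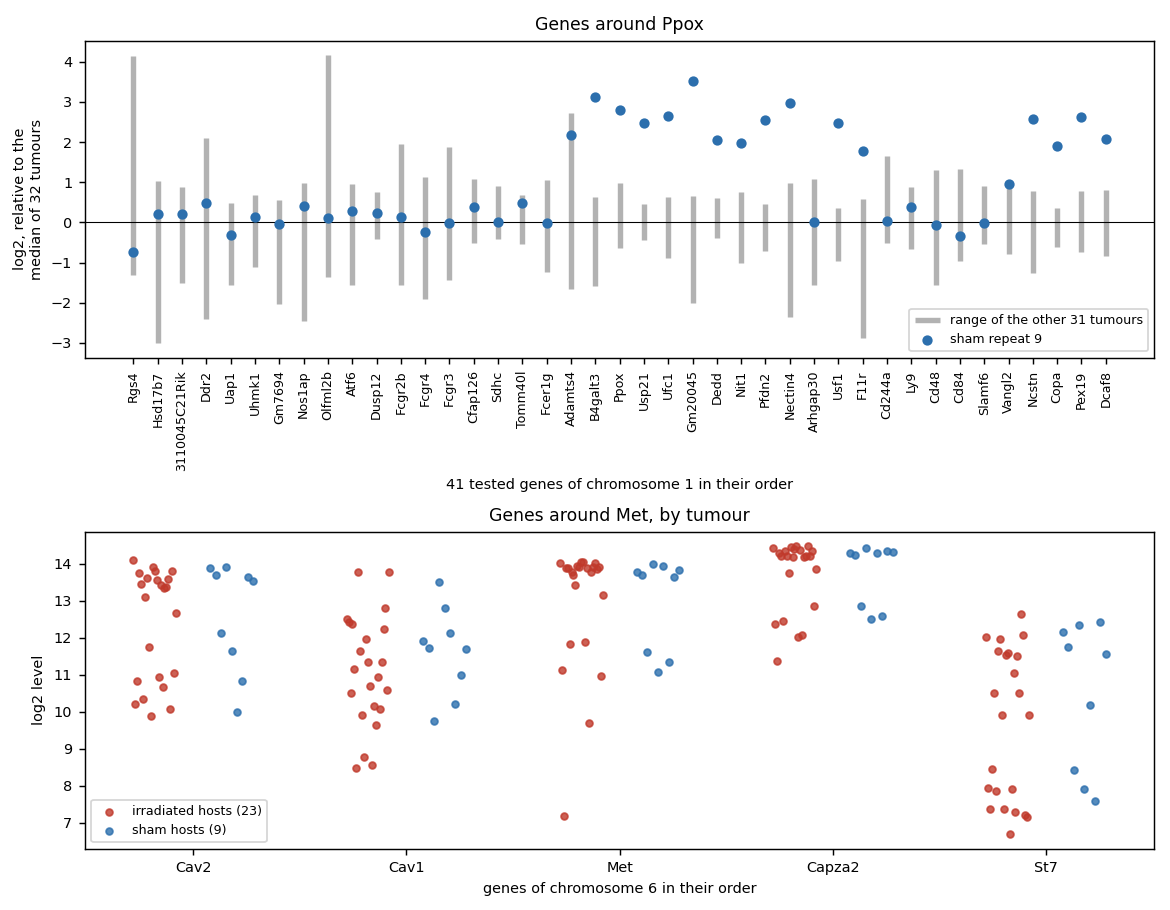
Upper panel, log2 level relative to the 32-tumour median of 41 neighbouring genes of chromosome 1 around Ppox, with sham repeat 9 as points and the range of the other 31 tumours as grey bars. Lower panel, log2 level of 5 neighbouring genes of chromosome 6 in each tumour, with 23 of irradiated hosts left of 9 of sham hosts for each gene. In the upper panel 15 points stand clear of the bars, and in the lower panel Met and Capza2 each split into a high and a low set of tumours in both groups.

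The groups differed in how much some genes varied from tumour to tumour. A limma test on absolute deviations from the group means called 18 genes with a smaller spread among tumours of irradiated hosts (0.141%) and 0 with a larger spread (0%), where 1131 genes (8.85%) and 154 genes (1.20%) had an unadjusted p under 0.05. Over all genes the median SD was 0.39 in tumours of irradiated hosts and 0.42 in tumours of sham hosts, and 55.8% of genes had the smaller SD in the irradiated group. Gzf1, a zinc finger transcription factor, had 8.16, 8.44 and 8.75 as lowest, median and highest in tumours of irradiated hosts, and 8.10, 8.94 and 9.38 in tumours of sham hosts. Its SD was 0.14 in tumours of irradiated hosts and 0.45 in tumours of sham hosts (adjusted p = 0.00185, limma). Sham repeats 1, 2, 3, 6 and 8 lay above the narrow irradiated band, at 8.94 to 9.38. Only sham repeat 5 lay below it, narrowly, at 8.10, so the sham values were displaced mostly upward.

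The other 17 were Fam181b, Slc35c2, Nnmt, 4930486L24Rik, Cd5l, Pigt, Alas2, Rsrc1, Tnfrsf1a, Mospd3, Pex19, Hdac11, Ppox, Papss1, Osm, Fam124a and Stk10. In several of them the widest sham values came from 1 or 2 tumours. Nnmt, which methylates nicotinamide, had an SD of 0.36 in tumours of irradiated hosts and 1.65 in tumours of sham hosts, where repeats 5 and 6 stood at 9.38 and 8.97 and the median was 5.93. Cd5l, secreted by macrophages, reached 8.33 in sham repeat 9 against a highest level of 6.81 in tumours of irradiated hosts. Pex19 and Ppox are members of the chromosome 1 run of that tumour. Tnfrsf1a, the main receptor of tumour necrosis factor, had an SD of 0.17 in tumours of irradiated hosts and 0.45 in tumours of sham hosts, with levels of 10.24 to 10.88 in tumours of irradiated hosts and 10.23 to 11.47 in tumours of sham hosts.

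How many genes were called depended on single tumours, and 21 of 32 fits that left out 1 tumour moved the count by over 1.5 times. Without sham repeat 5 the count was 3, and without sham repeat 7 it was 75. Without sham repeats 3, 4 and 9 in turn it was 28, 43 and 41, and without irradiated repeats 22 and 23 it was 36 and 34. Leaving out irradiated repeats 1, 2, 4, 5, 10, 11, 12, 13, 15, 17, 18, 19, 20 or 21 gave 8 to 11. With irradiated repeat 1 placed by its source name among the sham tumours it was 4. Gzf1 was called in every one of these fits. An alternative chosen after the data were seen left out the 6 tumours with a median correlation under 0.86, and called 27 genes. Only 6 of the 18 were among them, Gzf1, Slc35c2 and Fam181b included, while Nnmt and Alas2 were not called.

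**Figure D5:**
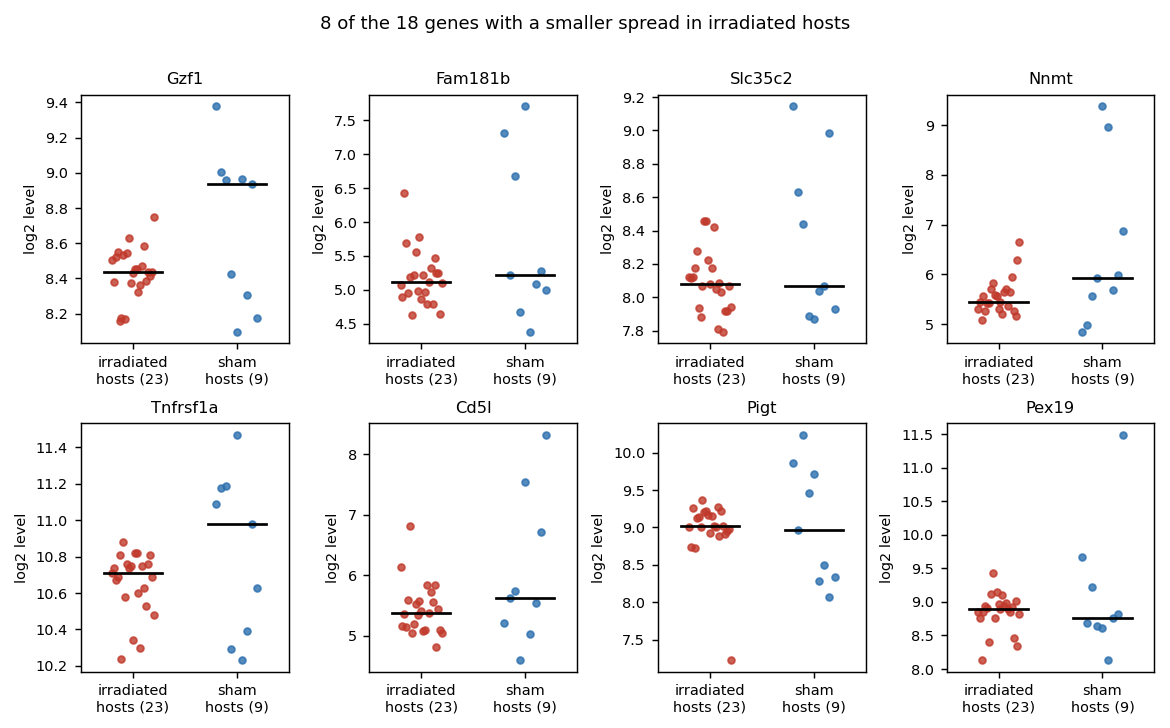
Log2 level of 8 of the 18 genes whose spread was smaller among tumours of irradiated wild-type hosts, with 23 tumours of irradiated hosts on the left and 9 of sham hosts on the right of each panel. Black lines are group medians. Gzf1 spans 8.16 to 8.75 in tumours of irradiated hosts and 8.10 to 9.38 in tumours of sham hosts, while Pex19 owes its wide sham range to 1 tumour at 11.49.

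Host genotype was examined by testing whether the change with irradiation differed between wild-type and Tgfb1 heterozygous hosts. That difference was called for 0 of 12786 genes (0%), with a smallest adjusted p of 1.00 (limma), and 617 genes (4.83%) had an unadjusted p under 0.05 where chance gives 639. The estimate is less precise than the main one, with a median SE of 0.26. Among the 12 leading higher genes of wild-type hosts 8 also had a positive difference in heterozygous hosts, and among the 12 leading lower genes 6 also had a negative one. These genes were picked by their p-values in wild-type hosts, and the share of all genes with the same sign was not computed. The counts therefore cannot show whether the 2 hosts changed alike. Lmcd1, a LIM domain protein, had the furthest opposite values of the named genes, with a mean of 7.41 ± 1.18 in irradiated wild-type hosts and 8.63 ± 1.18 in sham wild-type hosts (SD, n = 23 and 9), but 7.92 ± 0.92 in irradiated heterozygous hosts and 6.62 ± 1.14 in sham heterozygous hosts (SD, n = 10 and 6). The difference of the changes was -2.52 (SE 0.71) and did not pass the test.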

How the data were processed

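The authors deposited log2 levels for tumours and linear intensity for glands, both made with RMA (background correction, normalization and probe summary) per the submitters' processing notes. No label states the RMA version. Depth has no meaning for arrays, so the number of tumours limits the precision. Of 45101 probe sets, 34958 had 1 gene in the platform annotation, 932 several and 9211 none, and only the first were used. Each of 18194 genes was read from the probe set brightest on average in the 48 tumours. Genes with a mean under the 40th percentile of all probe sets (5.14) were left out, which left 12786. Gene identifiers matched GRCm38.p6 in 99.4% of cases.

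Tests used R 4.3.3 and limma 3.58.1, with a mean for each of 4 tumour groups, empirical Bayes variances with a trend, 44 residual degrees of freedom, two-sided p-values and Benjamini-Hochberg adjustment over 12786 genes at 0.05. Spread was tested on absolute deviations. The steps were checked on simulated normal values, drawn independently for each gene and tumour. That check does not cover correlated genes or tumours that stand apart. Named genes are the 12 with the smallest p in each direction, 2 per list without a called member, 12 markers chosen by name of which 11 were analysed here, and all called or 6 leading genes for spread and host difference. Genes of runs and chromosomes were named after their values were seen. Members, lists and tests were chosen with earlier results of these data known. Repeat numbers were not used to pair tumours in the main fit. Over 9 same-numbered pairs deviations correlated at -0.37 to 0.39, and 4 exceeded 0.1. No differently numbered pairs were set beside them, so these values cannot show whether repeat numbers pair tumours. Alternatives covered the samples fitted, filters, probe sets, normalization, variance model, label conflict, an epithelial covariate, a replicate block and leaving out tumours.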

Additional observations from a re-analysis of the deposited data

Results flagged for a closer look

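Among the 9 sham tumours, 83 values (35 genes, 28 list means and 20 chromosome medians) were examined for a lone tumour far from the others, and 10 met that criterion. For independent values chance gives about 1 in 20. These values are not independent, since all come from the same 9 tumours, and most of the genes were picked by their p-values in these data. The count of 10 is therefore a description and not a test. Sham repeat 5 accounted for 6 of the 10. It was the highest sham tumour for Alas2 (12.65, next 8.45), Tgfb1 (11.33, next 9.49) and the endothelial list mean (11.78, next 8.25). It was the lowest for Psma2 (11.65, next 12.10) and for the medians of chromosome 3 (-0.49, next -0.12) and chromosome 13 (-0.45, next -0.17). Sham repeat 6 was lowest in the mean of luminal progenitor and alveolar regulators (6.90, next 8.90) and in the chromosome 16 median (-0.20, next -0.03), and highest in the chromosome 9 median (0.37, next 0.06). Sham repeat 3 was lowest in Hspbap1 (6.36, next 6.75).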

How the results depend on the processing

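The counts of 0 genes higher and 0 lower held under all 13 alternatives and with each of 32 tumours left out. With 1 tumour left out, unadjusted counts ranged from 359 to 540 higher and 379 to 550 lower. Over the alternatives they ranged from 285 (stricter filter) to 794 (no filter) higher. The lower counts ranged from 376 (array weights) to 587 (6 tumours left out). The count for the difference between hosts was 0 under the 6 alternatives run for it and with each tumour left out. The smallest adjusted p between host treatments was 0.110, without sham repeat 3. With the replicate block, 490 genes were higher and 515 lower at an unadjusted p under 0.05, and 0 in each direction were called. The count of 18 genes with a smaller spread was 52 with no filter on dim genes, 10 after quantile normalization, 9 with the tumour of conflicting labels left out and 4 with it among sham tumours. It ranged from 3 to 75 over single tumours left out, and 21 of the 32 fits moved it by over 1.5 times. Directions of named genes without a call reversed for Des with the mean of probe sets (0.0157), for Epcam with the epithelial covariate (-0.00124), and under the block for Epcam (-0.24), Muc1 (-0.11) and Csn2 (-0.0206). An alternative chosen after seeing the data left out the 6 tumours that stand apart and reversed Krt8 (0.00925), Procr (0.0876), Ccr2 (0.0209) and Ereg (0.0256). With 1 tumour left out the range was -0.0753 to 0.501 for Krt14, -0.37 to 0.376 for Epcam, -0.0168 to 0.27 for Cdkn1a, -0.315 to 0.127 for Krt18, -0.391 to 0.0701 for Des and -0.689 to 0.0794 for Ereg. The medians of lists and chromosomes and the counts of runs without single tumours were also added after seeing the data. The causes were not tested. With 9 sham tumours, differences near the median SE of 0.16 were not detectable. Much larger ones also failed the test, such as 0.62 for Lsm1 (SE 0.17) and -1.55 for Hmox1 (SE 0.37). The counts of 0 therefore do not show that moderate differences were absent.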
